A study of Mus musculus with 14 samples.

Results

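The 10 genes described here are a set of iron handling and hepcidin control genes in mouse liver and kidney: Hamp and Hamp2, Tfrc, Tfr2, Trf, Fth1, Ftl1, Slc40a1, Bmp6 and Id1. They were taken by gene symbol from the deposited gene count tables, with no filter on their values. This set and the gene lists used below were chosen with earlier results of these data known. Their shares of called genes are therefore descriptions. The liver table held 10 of the 10 genes among 19660, and the kidney table held 9 among 20203, with no entry for Hamp2. All 10 passed the filter on low counts in liver. In kidney 7 passed, and Hamp and Tfr2 did not.

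RNA was sequenced from liver and kidney of adult male mice, 12 weeks old, fed either a normal diet or one high in salt. Mice of all 4 groups carried a human angiotensinogen transgene with the -6A promoter haplotype, so no group lacks it, and the labels give no strain. There were 4 liver and 3 kidney libraries for each diet, and nothing in the labels shows that the libraries came from separate animals. The p-values below therefore measure the spread between these libraries, which may in part be technical. Normal diet liver libraries are called 1 to 4. High salt liver libraries are called HS5 to HS8, because their column numbers match no sample title.

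Iron leaves cells through ferroportin (Slc40a1) and travels in plasma bound to transferrin (Trf). Cells take it up through transferrin receptor 1 (Tfrc) and store it in ferritin, a shell of heavy (Fth1) and light (Ftl1) chains. Hepcidin (Hamp), a peptide hormone made by hepatocytes, binds ferroportin and causes its breakdown, and so limits the iron that enters plasma. Hepcidin transcription is raised by BMP6 from liver endothelial cells, acting through SMAD proteins, and by IL-6 acting through STAT3. Id1 is a target of the same BMP signal, and transferrin receptor 2 (Tfr2) takes part in sensing transferrin that carries iron.

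Part of this system acts on RNA that is already made, through hairpins called iron responsive elements. When cells are short of iron, the iron regulatory proteins bind them, which protects Tfrc mRNA from decay and blocks translation of ferritin mRNA. The transcripts of 4 of the 10 genes hold at least 1 such element by its letters, and the elements are shown because an RNA level reports on the 2 kinds of gene differently. The search looked on the sense strand of UTRs for a C, 5 bases, the loop CAGTGN and 5 bases able to pair with the first 5 (G with T allowed). It matched the 5′ UTR of 21 of 21291 protein coding genes (0.0986%) and the 3′ UTR of 93 (0.437%). Each line gives 30 bases of the GRCm38 genome, 5′ to 3′ on the gene's strand, with the 6 bases of the loop in capitals.
Tfrc 3′ UTR, element 1, chr16:32631219-32631248, plus strand: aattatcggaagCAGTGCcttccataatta
Tfrc 3′ UTR, element 2, chr16:32631598-32631627, plus strand: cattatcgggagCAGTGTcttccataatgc
Tfrc 3′ UTR, element 3, chr16:32631663-32631692, plus strand: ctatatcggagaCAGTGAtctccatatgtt
Tfrc 3′ UTR, element 4, chr16:32631710-32631739, plus strand: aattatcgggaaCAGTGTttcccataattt
Fth1 5′ UTR, chr19:9982732-9982761, plus strand: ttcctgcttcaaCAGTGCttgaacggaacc
Ftl1 5′ UTR, chr7:45459778-45459807, minus strand: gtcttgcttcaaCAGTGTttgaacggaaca
Slc40a1 5′ UTR, chr1:45925464-45925493, minus strand: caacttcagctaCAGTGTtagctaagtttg

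Expression is given as CPM, the counts of a gene over those of its library times 1e+06, with library sizes scaled by TMM within each tissue. Liver libraries held 37267778 to 51487382 gene counts and kidney libraries 16046094 to 22004927. Mitochondrial transcripts took 2.30% and 2.06% of normal diet liver libraries 1 and 2, 29.6% and 18.7% of libraries 3 and 4, and 11.3 to 19.2% of the high salt libraries. Library 4 stood apart in inflammation genes: 20 acute phase genes summed to 107601 CPM there, against 15942 to 23066 CPM in the other normal diet liver libraries and 11527 to 13941 CPM on high salt. Its 6 neutrophil markers summed to 54.7 CPM, against 0.856 to 1.57 CPM in the other 7 liver libraries. HS5 and HS6 were much alike, with a chi-square per gene of 1.59, while the 11 other liver pairs within a diet had 9.83 to 62.7. Normal diet kidneys 2 and 3 had 5.16, against 51.9 and 49.3 for their pairs with kidney 1, and high salt kidney pairs had 18.2 to 27.4. Kidney tubule markers summed to 25310, 56835 and 59138 CPM in normal diet kidneys 1 to 3 and to 32953, 58810 and 40692 CPM on high salt. Mitochondrial transcripts took 31.5 to 41.2% of normal diet and 23.5 to 36.9% of high salt kidney libraries. The 8 hepatocyte markers summed to 49238 to 78567 CPM in normal diet liver, to 90250 to 107687 CPM in high salt liver and to 435 to 711 CPM in kidney, and kidney tubule markers to 0.547 to 46.2 CPM in liver and to 25310 to 59138 CPM in kidney, as the tissue labels have it. In such bulk RNA, fewer cells of a type and less RNA per cell cannot be told apart.

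Of the 10 iron genes, 7 passed the filter on low counts in both tissues, and Hamp, Hamp2 and Tfr2 did so in liver only. Levels were scaled within each tissue and were not tested between tissues. Per kilobase of transcript, the normal diet liver levels ran from Trf at 5604 CPM per kb (4191 to 7921 over 4 libraries) through Hamp at 2880 (1366 to 4803), Ftl1 at 1629 (1226 to 2200) and Fth1 at 1570 (1365 to 1812). Neighbours in that order overlapped over the libraries, while Trf lay above Ftl1 and Fth1 in every library. Below them came Tfr2 at 83.0 CPM per kb (62.4 to 122), Hamp2 at 41.8 (22.4 to 63.5) and Slc40a1 at 25.7 (16.4 to 32.05). Tfr2 reached no lower than 62.4 and Hamp2 up to 63.5, so these neighbours met. Tfrc stood at 5.08 CPM per kb (2.72 to 6.21), Id1 at 2.32 (1.41 to 3.79) and Bmp6 at 0.464 (0.368 to 0.589). Of the last 3, Tfrc and Id1 overlapped and Bmp6 lay below both in every library. The Ftl1 value is that of its own row, with 54.5 to 55.5% of the counts of Ftl1 and its near-identical copies. The place of Ftl1 in this order is therefore uncertain. Summed, these rows stood at a mean of 2865 CPM, against 1459 CPM for Fth1.

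In normal diet kidney the heavy ferritin chain led, with Fth1 at 3679 CPM per kb (3488 to 3966) and Ftl1 at 201 (181 to 218). The Ftl1 row held only 24.7 to 25.2% of the counts of Ftl1 and its near-identical copies there. Summed, these rows stood at a mean of 778 CPM, against 3417 CPM for Fth1. The gap between the chains was thus narrower than the Ftl1 row alone shows. Tfrc at 19.4 CPM per kb (18.1 to 20.8) and Slc40a1 at 18.7 (14.4 to 20.9) overlapped. Bmp6 at 5.82 CPM per kb (4.91 to 7.22), Id1 at 4.10 (2.35 to 5.58) and Trf at 3.88 (2.53 to 5.72) overlapped too. Hamp was close to absent, with 1, 5 and 1 counts in the normal diet kidney libraries and 5, 0 and 0 on high salt. Tfr2 had 1, 0 and 6 counts on the normal diet and 1, 0 and 9 on high salt. The hormone and the transferrin receptor 2 of this set were thus read from liver RNA here, and a count of 0 only says that a gene lies under 3 counts.

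**Figure D1:**
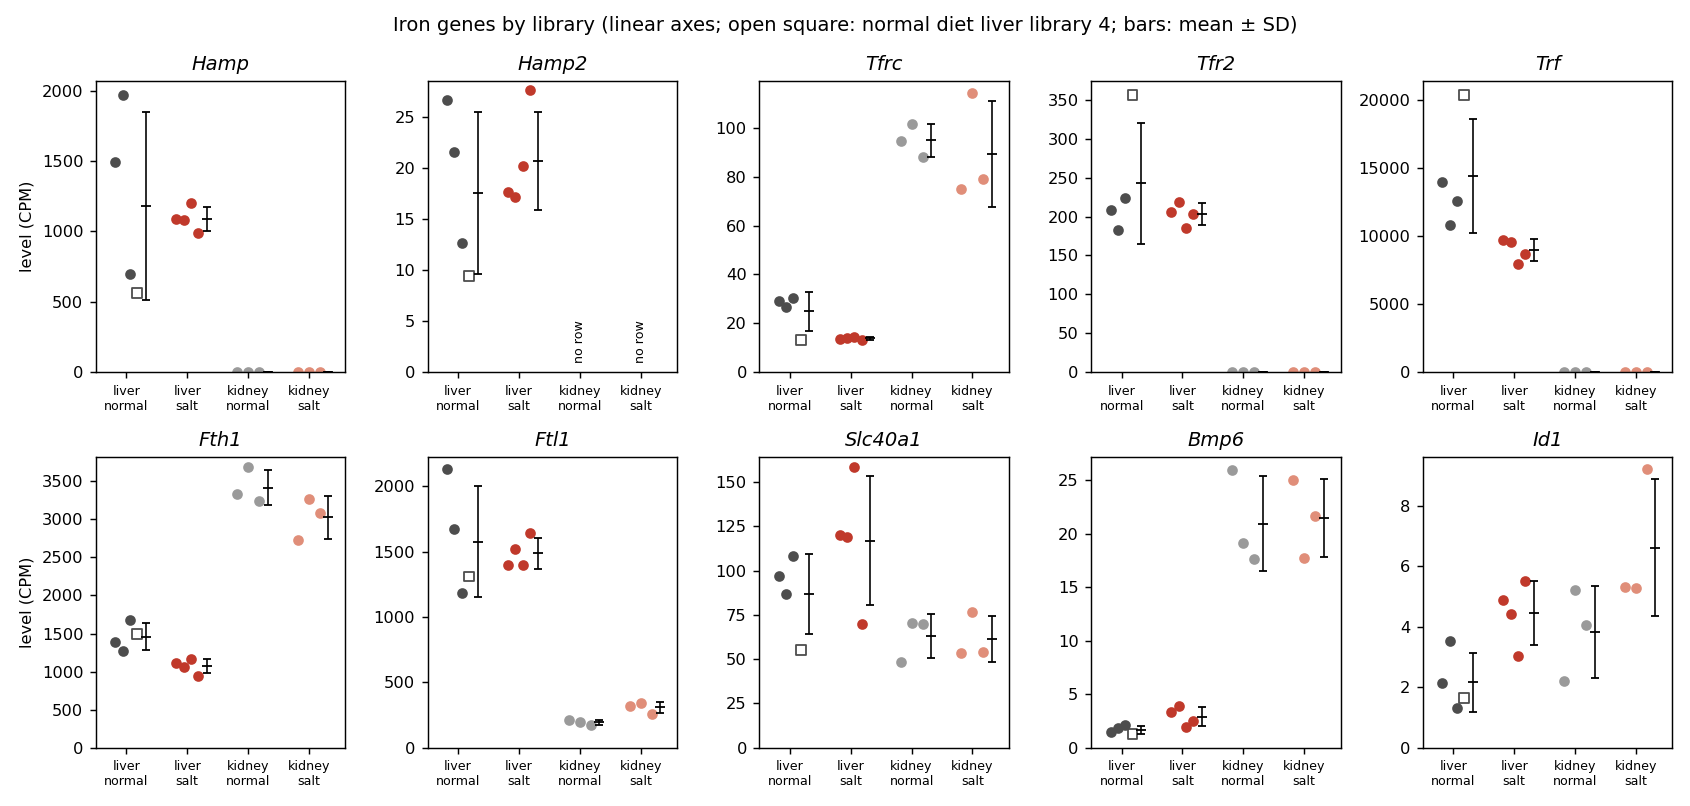
Level (CPM, linear axis from 0) of each of the 10 genes in each liver and kidney library by diet, with the mean and SD as bars; the open square is normal diet liver library 4. Tfrc in liver lies at 13.2 to 14.4 CPM in all 4 high salt libraries and in library 4 at 13.3 CPM, below the other 3 normal diet libraries, and Trf and Fth1 in liver do not overlap between the diets.

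High salt was compared with the normal diet to ask how the diet moves expression in each tissue. In liver none of the 10 iron genes passed the test across all genes. The largest differences were a lower level of Tfrc, Trf and Fth1 on high salt, by 1.36-fold to 1.80-fold, and a higher level of Bmp6 and Id1, by 1.74-fold and 2.06-fold. With edgeR's quasi-likelihood test and Benjamini-Hochberg adjustment, 0 of 10 had an adjusted p under 0.05, where 1.00% of the 15130 genes tested did. At an unadjusted p under 0.05 there were 5 of 10, against 21.2% of all genes, and DESeq2 called 4 (Tfrc, Trf, Fth1 and Id1), against 7.60% of all genes. The diets did not overlap for 2 of 10, Trf and Fth1, both lower on high salt, against 12.5% of all genes in either direction and 6.03% with high salt lower. Without library 4, edgeR called 1 of the 10, Tfrc, against 2.68% of all genes.

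Hepcidin mRNA did not separate the diets, and its spread lay mostly within the normal diet. Hamp (chr7:30942368-30944033, minus strand) was at 1494, 1969, 700 and 560 CPM in normal diet liver libraries 1 to 4 and at 1084, 1078, 1198 and 989 CPM in HS5 to HS8. All 4 high salt libraries lay inside the normal diet range, above libraries 3 and 4 and below libraries 1 and 2. The means were 1181 ± 667 CPM and 1087 ± 86.1 CPM (SD, n = 4 each), which is a log2 fold change of -0.12 (95% interval -0.95 to 0.71, edgeR adjusted p = 0.878). The interval reaches well to both sides of 0, so these libraries do not fix a direction for this gene. Libraries 1 and 2, the high ones, were also those with 2.30% and 2.06% mitochondrial transcripts. With both left out the log2 fold change was 0.79 (adjusted p = 0.129), and with library 4 left out it was -0.36 (adjusted p = 0.457). The part of the mitochondrial share in the Hamp levels was not tested.

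Mice have a near copy of the hepcidin gene, Hamp2, in the same cluster on chromosome 7 (chr7:30922372-30924682, minus strand). It stood at 26.7, 21.6, 12.6 and 9.41 CPM in normal diet libraries 1 to 4 and at 17.7, 17.2, 20.2 and 27.6 CPM in HS5 to HS8. The diets overlapped (log2 fold change 0.24, SE 0.31, edgeR adjusted p = 0.687). Libraries 3 and 4 were the low ones for both hepcidin genes, and HS8 was the lowest high salt library for Hamp and the highest for Hamp2. Over the 8 liver libraries Pearson's r of their log2 CPM was 0.78, and 0.59 without library 4, a description over libraries that share their depth and composition. Hamp made up 97.3 to 98.9% of the sum of both genes, and the sum had a log2 fold change of -0.11 (adjusted p = 0.884). Of 361 windows of 50 bases in the Hamp transcript, 16.6% also occur in Hamp2, so part of the reads could be assigned to either gene.

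The promoters of both genes are shown for letters through which the BMP and STAT signals are known to act on hepcidin. In the window searched, Hamp held the letters of both signals and Hamp2 those of the STAT signal only. In Hamp, the letters GGCGCC of the BMP responsive element lie 109 to 104 bases before the start site, and TTCTTGGAA, a match to the STAT site TTCNNNGAA, lies 97 to 89 bases before it. Hamp2 has TTCTTGGAA 94 to 86 bases before its start site and no GGCGCC in the window searched. That window ran from 250 bases before to 50 after the RefSeq start site, on both strands, and bases further upstream were not searched. The counted Hamp2 gene reaches to chr7:30924682 on the minus strand, so it starts upstream of the RefSeq start used. The Hamp2 window, chr7:30924132-30924431, thus lay inside the counted gene. In windows of that length GGCGCC was in 11.9% and TTCNNNGAA in 8.3% of 32851 RefSeq promoters, so a match alone is common. The 2 windows were 92.9% identical over 297 aligned bases. The 150 bases before each start site follow, from RefSeq on GRCm38.p6, 5′ to 3′ on the minus strand, with the matches in capitals.
Hamp, chr7:30944030-30944179, minus strand: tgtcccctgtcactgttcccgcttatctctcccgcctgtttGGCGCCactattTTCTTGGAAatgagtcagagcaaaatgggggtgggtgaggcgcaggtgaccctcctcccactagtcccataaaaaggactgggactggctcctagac
Hamp2, chr7:30924182-30924331, minus strand: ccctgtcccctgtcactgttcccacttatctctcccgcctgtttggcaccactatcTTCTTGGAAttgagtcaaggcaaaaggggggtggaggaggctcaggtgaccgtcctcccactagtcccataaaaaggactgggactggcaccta

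Of the upstream signals, neither Bmp6 nor its target Id1 passed the test, and both overlapped between the diets through HS7. Bmp6 (chr13:38345107-38500303, plus strand), the BMP ligand of the set, was at 1.43, 1.80, 2.12 and 1.32 CPM on the normal diet and at 3.34, 3.85, 1.89 and 2.49 CPM in HS5 to HS8. HS7 lay within the normal diet range and the other 3 high salt libraries above it. The means were 1.67 ± 0.364 and 2.89 ± 0.873 CPM (SD, n = 4 each), which is a log2 fold change of 0.80 (SE 0.28, edgeR adjusted p = 0.165). BMP6 of the liver comes mainly from sinusoidal endothelium, and 8 markers of those cells summed to 82.2, 81.8, 213 and 153 CPM on the normal diet and to 168, 164, 108 and 151 CPM on high salt. HS7 was the lowest of the high salt libraries in that sum as in Bmp6, but library 3 had the highest sum of all with a normal diet level of Bmp6. The part of the endothelial markers in the Bmp6 difference was not tested. Bmp6 also rested on few reads, 55 to 67.3 counts per normal diet library.

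Id1 (chr2:152736251-152737411, plus strand), a transcriptional inhibitor that BMP signalling induces, was at 2.14, 3.54, 1.32 and 1.66 CPM on the normal diet and at 4.88, 4.43, 3.03 and 5.51 CPM on high salt. Of the high salt libraries only HS7 overlapped, lying below normal diet library 2. The means of 2.17 ± 0.977 and 4.47 ± 1.05 CPM (SD, n = 4 each) gave a log2 fold change of 1.04 (SE 0.32, 95% interval 0.32 to 1.77). The unadjusted p was 0.0094 and the adjusted p was 0.133 by edgeR, and DESeq2 gave an adjusted p of 0.0411. So the size of the difference was about the same by both tools, and the call depends on the tool. Id1 and Bmp6 followed each other loosely over the 8 liver libraries (r = 0.68), and neither followed Hamp closely (Id1 r = 0.47, Bmp6 r = 0.06).

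Tfr2 (chr5:137569840-137587482, plus strand), which hepatocytes use to sense transferrin, was at 209, 183, 224 and 356 CPM on the normal diet and at 206, 219, 185 and 203 CPM on high salt. Only library 4, the one with high acute phase genes, stood above the others. Without it, the normal diet mean was 205 ± 20.8 CPM (SD, n = 3) and the high salt mean was 203 ± 14.01 CPM (SD, n = 4). The log2 fold change was -0.26 (edgeR adjusted p = 0.509) with library 4 and -0.023 (95% interval -0.34 to 0.30) without it.

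Transferrin receptor 1 was the iron gene whose liver level was lower on high salt with a call that turned on 1 library. Tfrc (chr16:32608920-32632795, plus strand) was at 29.2, 26.5, 30.4 and 13.3 CPM in normal diet libraries 1 to 4. It was at 13.4, 14.1, 14.4 and 13.2 CPM in HS5 to HS8. The first 3 normal diet libraries lay above all high salt libraries, and library 4 lay among the high salt ones. With all libraries the means were 24.9 ± 7.87 and 13.8 ± 0.605 CPM (SD, n = 4 each), which is a log2 fold change of -0.85 (SE 0.24, unadjusted p = 0.0050, edgeR adjusted p = 0.109). DESeq2 gave an adjusted p of 0.0262. Without library 4 the normal diet mean was 28.7 ± 1.99 CPM (SD, n = 3), and Tfrc fell by 1.07 on the log2 scale (SE 0.13, 95% interval -1.36 to -0.78, edgeR adjusted p = 0.0147). Adding up HS5 and HS6 as 1 library, again without library 4, left the log2 fold change at -1.06 and moved the adjusted p to 0.0718. With library 4 kept and HS5 and HS6 summed it was -0.85 (adjusted p = 0.291).

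Transferrin receptor 1 is dense on red cell precursors, so the erythroid markers are given beside it. The 5 markers in the liver table, among them the globin genes, summed to 1807, 606, 625 and 604 CPM on the normal diet and to 191, 212, 646 and 286 CPM on high salt. By edgeR all 4 of those tested had a log2 fold change below 0 with an unadjusted p under 0.05, against 21.2% of all genes, and 0 passed the adjusted threshold, against 1.00%. The sum was thus low in HS5, HS6 and HS8, and HS7 lay within the normal diet range. The part of the erythroid markers in the Tfrc difference was not tested. The membrane marker Slc4a1 was at 0 in HS6.

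**Figure D2:**
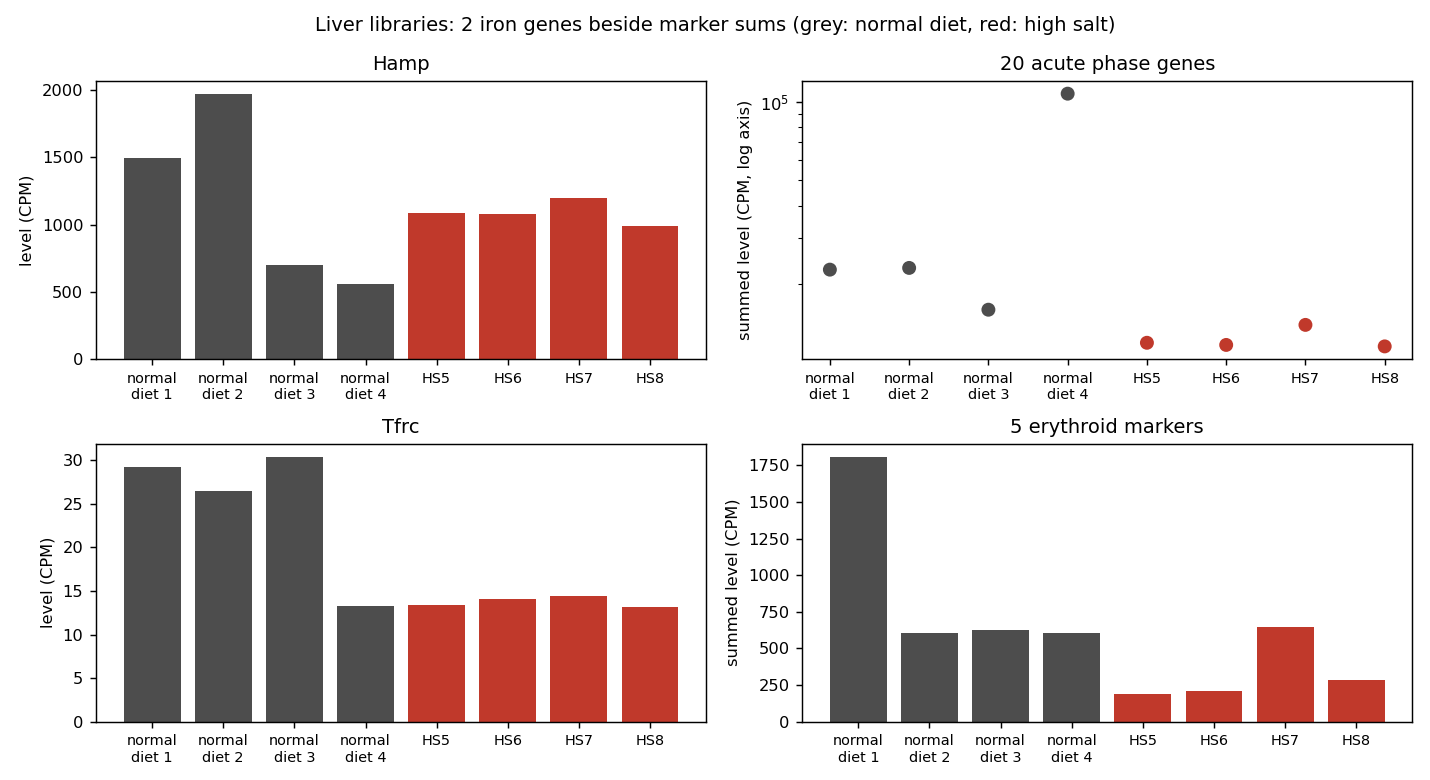
Levels of Hamp and Tfrc (CPM, left) and summed levels of 20 acute phase genes and 5 erythroid markers (CPM, right, the acute phase panel on a log axis) in each of the 8 liver libraries, grey for normal diet and red for high salt. Library 4 has the acute phase sum of 107601 CPM together with low Hamp and Tfrc, while the erythroid sum of 1807 CPM belongs to library 1.

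Transferrin mRNA was lower in all 4 high salt liver libraries than in any normal diet one. Trf (chr9:103204001-103230445, minus strand), the plasma iron carrier secreted by hepatocytes, was at 13943, 10775, 12543 and 20365 CPM on the normal diet and at 9695, 9569, 7972 and 8689 CPM on high salt. The means were 14407 ± 4178 and 8981 ± 808 CPM (SD, n = 4 each), with a log2 fold change of -0.68 (SE 0.27, unadjusted p = 0.0323, edgeR adjusted p = 0.199). Library 4 was the highest for Trf as for Tfr2. The hepatocyte marker sum also did not overlap between the diets but was higher on high salt. It stood at 90250 to 107687 CPM, against 49238 to 78567 CPM on the normal diet. Most of that sum was Alb, at 32441 to 50637 CPM on the normal diet and 67824 to 85226 CPM on high salt. Only 3 of the 8 markers had a log2 fold change above 0, with a median of -0.17, against 48.0% of all genes. The part of the hepatocyte markers in the Trf difference was not tested. Without library 4 the diets still did not overlap, and the log2 fold change was -0.48 (95% interval -0.98 to 0.025, adjusted p = 0.193).

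The heavy ferritin chain showed the same order of libraries by diet and the light chain did not. Fth1 (chr19:9980598-9985099, plus strand), which carries the ferroxidase activity of ferritin, was at 1390, 1268, 1683 and 1493 CPM on the normal diet and at 1115, 1064, 1167 and 946 CPM on high salt. The diets did not overlap, and library 4 was an ordinary normal diet library for this gene. The means of 1459 ± 176 and 1073 ± 94.5 CPM (SD, n = 4 each) gave a log2 fold change of -0.44 (SE 0.19, unadjusted p = 0.0383, edgeR adjusted p = 0.211), and -0.44 without library 4 (adjusted p = 0.152). Ftl1 (chr7:45457944-45459885, minus strand) was at 2130, 1678, 1187 and 1311 CPM on the normal diet and at 1398, 1522, 1395 and 1640 CPM on high salt. All high salt libraries lay inside the normal diet range (log2 fold change -0.082, adjusted p = 0.862). Over the 8 liver libraries Fth1 ran opposite to Id1 (r = -0.96, also without library 4), which is a description over libraries of 2 diets.

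Ferroportin, the iron exporter, was spread widely in both diets. Slc40a1 (chr1:45908068-45926524, minus strand) was at 96.9, 86.6, 108 and 55.2 CPM on the normal diet and at 120, 119, 159 and 70.0 CPM on high salt. In each diet 1 library lay low, library 4 and HS8, and the other 3 high salt libraries lay above all normal diet libraries. The log2 fold change was 0.43 (SE 0.27, edgeR adjusted p = 0.384), and 0.26 without library 4 (95% interval -0.31 to 0.83). Macrophages are a main site of ferroportin in liver, and 11 macrophage markers summed to 173, 140, 234 and 362 CPM on the normal diet and to 226, 229, 110 and 122 CPM on high salt. None of the 11 markers was at 0 in any liver library. The part of the macrophage markers in the Slc40a1 levels was not tested.

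**Figure D3:**
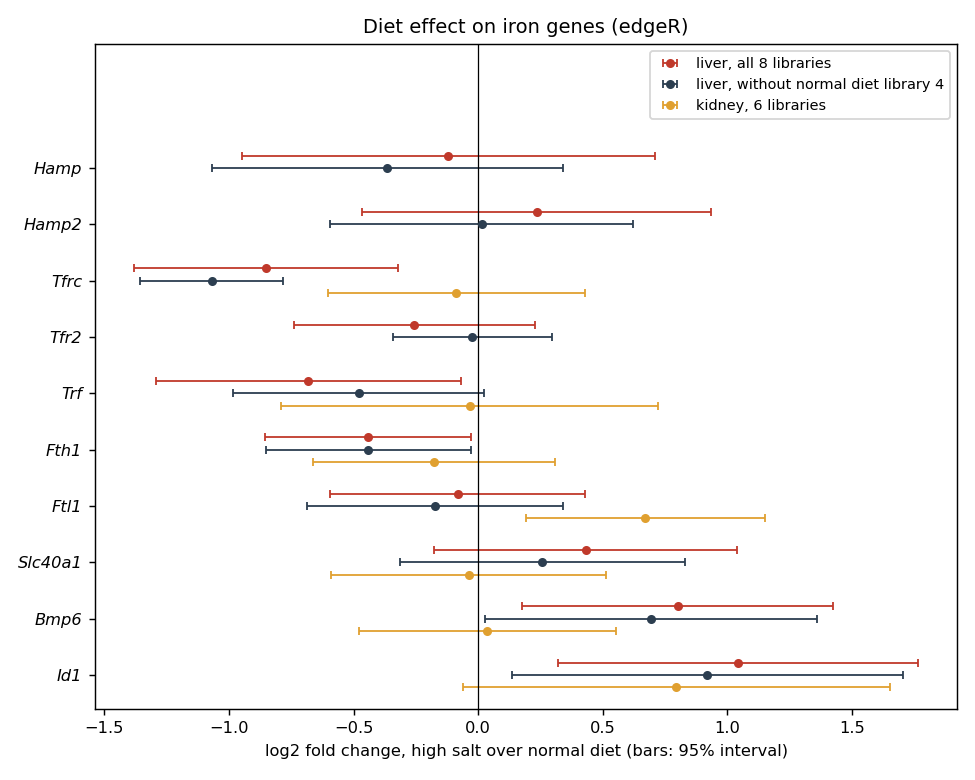
Log2 fold change of high salt over normal diet for each iron gene from edgeR, with its 95% interval, for all 8 liver libraries, for liver without normal diet library 4 and for the 6 kidney libraries. Leaving out library 4 moves Tfrc from -0.85 to -1.07 and Tfr2 from -0.26 to -0.023, and Fth1 stays at -0.44; Hamp, Hamp2 and Tfr2 have no kidney value.

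In kidney the iron genes stayed close to their normal diet levels, apart from Ftl1 and Id1. With edgeR 0 of 7 tested genes passed, as did 0% of the 15847 genes tested, and DESeq2 called 0 of the 7 and 0.0694% of all genes. At an unadjusted p under 0.05 there was 1 of 7, Ftl1, against 2.01% of all genes. The diets did not overlap for 2 of 7, Ftl1 and Id1, both higher on high salt, against 6.88% of all genes in either direction and 3.84% with high salt higher.

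The Ftl1 difference in kidney came with a different split of ferritin light chain counts over near-identical genes. Ftl1 was at 211, 196 and 176 CPM in the normal diet kidney libraries and at 320, 346 and 262 CPM on high salt, a log2 fold change of 0.67 (SE 0.21, unadjusted p = 0.0119, edgeR adjusted p = 0.9996). The pseudogene Ftl2-ps was at 171, 151 and 138.1 CPM on the normal diet and at 2.61, 0.579 and 152 CPM on high salt, so in high salt kidneys 1 and 2 its counts were nearly gone. The pseudogene Ftl1-ps1 was at 454, 422 and 388 CPM and at 313, 327 and 485 CPM. Of 919 windows of 50 bases in the Ftl1 transcript, 73.4% also occur in Ftl1-ps1, 29.7% in Ftl2-ps and 13.6% in Ftl1-ps2, so reads of 1 gene can be counted for another.

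Added up, Ftl1 and its 3 copies stood at 847, 777 and 711 CPM in the normal diet kidney libraries and at 641, 678 and 912 CPM on high salt. The diets then overlapped, with means of 778 ± 67.7 and 744 ± 147 CPM (SD, n = 3 each) and a log2 fold change of -0.065 (95% interval -0.59 to 0.46, edgeR adjusted p = 0.9998). The Ftl1 share of the sum was 24.9, 25.2 and 24.7% on the normal diet and 49.9, 51.0 and 28.7% on high salt. In liver it was 54.3 to 56.5% in all 8 libraries, and the sum had a log2 fold change of -0.094 there (adjusted p = 0.847). The higher Ftl1 value in kidney is therefore uncertain as a difference of the gene, since it is not present in the sum.

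**Figure D4:**
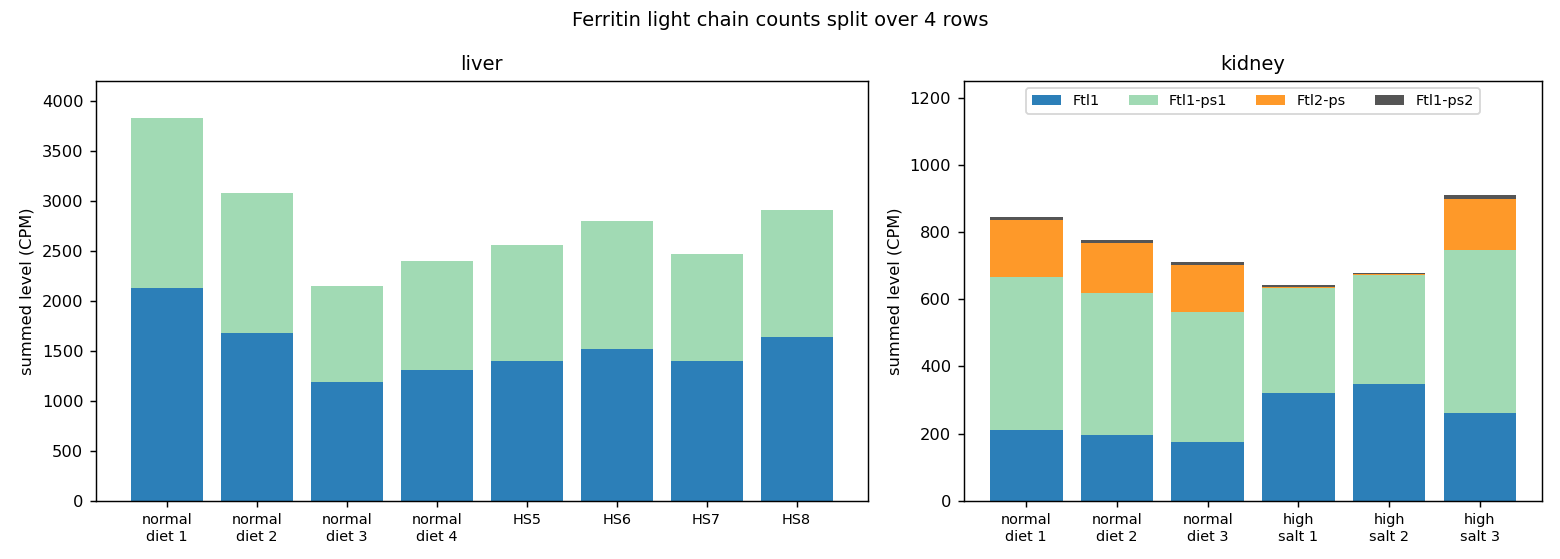
Stacked levels (CPM) of Ftl1 and its copies Ftl1-ps1, Ftl2-ps and Ftl1-ps2 in each liver library (left) and kidney library (right). Ftl2-ps is at 138.1 to 171 CPM in the normal diet kidney libraries and in high salt kidney 3 at 152 CPM, and at 2.61 and 0.579 CPM in high salt kidneys 1 and 2, where Ftl1 makes up 49.9% and 51.0% of the sum.

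Id1 in kidney was at 2.20, 5.21 and 4.07 CPM on the normal diet and at 5.31, 5.29 and 9.23 CPM on high salt. The lowest high salt library and the highest normal diet library were almost level, so the groups only just failed to overlap (log2 fold change 0.79, SE 0.37, unadjusted p = 0.065, edgeR adjusted p = 0.9996). The other 5 genes overlapped between the diets. Tfrc was at 94.8, 101.8 and 88.3 CPM on the normal diet and at 74.9, 114.2 and 79.01 CPM on high salt. Fth1 was at 3327, 3685 and 3240 CPM and at 2723, 3269 and 3082 CPM. Across Tfrc, Trf, Fth1, Slc40a1 and Bmp6 the kidney log2 fold changes ran from -0.18 to 0.037.

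Whether the diet acted differently in the 2 tissues was tested in 1 model of all 14 libraries. For 9 genes with a value, edgeR called 0, as for 0% of the 16633 genes tested, and 1 of 9, Tfrc, had an unadjusted p under 0.05, against 10.1% of all genes. The Tfrc change in liver was lower than that in kidney by 0.77 on the log2 scale (log2 difference -0.77, SE 0.36, adjusted p = 0.490). The Bmp6 difference was 0.78 in the other direction (SE 0.37, adjusted p = 0.494). The Id1 difference was 0.24 (SE 0.54, adjusted p = 0.904), so the higher Id1 values of both tissues were not told apart. No iron gene was thus shown to respond differently in liver and kidney at this number of libraries.

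The wider hepcidin pathway was read from lists of genes, given here by counts. In liver 20 genes of the BMP and SMAD arm were tested and 0 passed in either direction by edgeR, while 8 had an unadjusted p under 0.05 and DESeq2 called 3 higher and 2 lower. Over all liver genes 1.00% passed by edgeR, 21.2% had an unadjusted p under 0.05 and 7.60% passed by DESeq2. Of these 20, 17 had a log2 fold change above 0, with a median of 0.24, where 48.0% of all genes were above 0 with a median of -0.023. Smad7, an inhibitory SMAD that the BMP signal itself induces, was at 3.61, 5.01, 4.25 and 2.33 CPM on the normal diet and at 6.96, 8.19, 8.75 and 10.2 CPM on high salt. Its log2 fold change was 1.17 (SE 0.25, edgeR adjusted p = 0.0607), and 0.98 without library 4 (adjusted p = 0.0438). Fgl1, a secreted liver protein that can hold back BMP signalling, was at 264, 191, 199 and 947 CPM on the normal diet and at 66.1, 62.1, 115 and 67.2 CPM on high salt. Its log2 fold change was -2.37 (adjusted p = 0.0692), and -1.50 without library 4 (adjusted p = 0.0338). With HS5 and HS6 summed as 1 library, again without library 4, 0 genes of this list passed by edgeR, Smad7 and Fgl1 included. Fgl1 was highest in library 4, where the acute phase sum was highest too, and the part of that response in the Fgl1 difference was not tested.

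The IL-6 and STAT3 arm had 7 genes tested in liver. Of these 0 passed by edgeR (1.00% of all genes) or DESeq2 (7.60%), and 1 had an unadjusted p under 0.05 (21.2%). The median log2 fold change was 0.09. Jak2, a kinase of the receptor, was at 7.96 ± 1.05 CPM on the normal diet and, with high salt, at 10.6 ± 0.574 CPM (SD, n = 4 each, log2 fold change 0.42, edgeR adjusted p = 0.175). Socs3, a feedback inhibitor of this signal, was at 11.8 ± 14.5 and 5.98 ± 6.57 CPM (SD, n = 4 each; adjusted p = 0.530), a spread as large as its mean. Its log2 fold change was -0.99 with all libraries and 0.37 without library 4. In library 4 Hamp was lowest of all 8 liver libraries at 560 CPM, beside the acute phase sum of 107601 CPM.

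Among 13 genes of iron uptake, oxidation, reduction and ferritin turnover tested in liver, 1 rose and 0 fell by edgeR, where 1.00% of all genes passed, with a median log2 fold change of -0.071. The gene that rose was Steap2, a metalloreductase that reduces iron and copper. It was at 3.33, 2.26, 3.52 and 2.72 CPM on the normal diet and at 6.99, 5.80, 5.84 and 6.50 CPM on high salt. The diets were well apart, with a log2 fold change of 1.09 (SE 0.20, edgeR adjusted p = 0.0433), and 1.04 without library 4 (adjusted p = 0.0429). The call sits close to the threshold: with HS5 and HS6 summed the log2 fold change was 1.08 and the adjusted p was 0.161. It was also lost without normal diet library 1 or 2 or any 1 high salt library, with adjusted p from 0.0552 to 0.168. In kidney Steap2 was at 83.8 ± 21.3 CPM on the normal diet and, with high salt, at 68.8 ± 7.39 CPM (SD, n = 3 each; adjusted p = 0.9996).

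Of the 3 iron regulatory protein genes tested in liver, 0 passed by edgeR, 0 had an unadjusted p under 0.05 and 0 passed by DESeq2. Over all liver genes these shares were 1.00%, 21.2% and 7.60%, so a count of 0 among 3 genes says little. Aco1, whose protein is both an aconitase and an RNA binding protein of the elements shown above, was at 161 ± 8.64 and 180 ± 16.8 CPM (SD, n = 4 each; log2 fold change 0.16, edgeR adjusted p = 0.515). Fbxl5, which marks the second such protein for breakdown when iron is present, was at 27.9 ± 14.2 and 19.0 ± 3.11 CPM (SD, n = 4 each; adjusted p = 0.355).

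Genes of heme handling had no call by edgeR, where 1.00% of all liver genes passed. Of 11 genes of heme scavenging, transport and breakdown tested in liver, 0 passed by edgeR, 4 had an unadjusted p under 0.05 (21.2% of all genes) and DESeq2 called 2, both lower (7.60% of all genes in either direction). Their median log2 fold change was -0.28, and 2 of the 11 were above 0, against 48.0% of all genes. Hpx, the plasma heme carrier hemopexin, was at 7491, 7536, 4351 and 22105 CPM on the normal diet and at 2388, 2422, 3222 and 2469 CPM on high salt. Its log2 fold change was -1.98 (adjusted p = 0.0768), and -1.31 without library 4 (adjusted p = 0.0423). With HS5 and HS6 summed as 1 library, again without library 4, Hpx did not pass by edgeR. Hpx is itself one of the 20 acute phase genes, all 20 of which had a log2 fold change below 0 in liver. Blvra, a biliverdin reductase, was at 18.4 ± 4.60 and 10.3 ± 1.17 CPM (SD, n = 4 each; log2 fold change -0.83, adjusted p = 0.0787).

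Of 9 heme synthesis genes tested in liver, 0 passed by edgeR, 3 had an unadjusted p under 0.05 (21.2% of all genes) and DESeq2 called 3, all lower (7.60% of all genes in either direction). Their median log2 fold change was -0.23, and 1 of the 9 was above 0, against 48.0% of all genes. Alas2, the red cell form of the first enzyme of heme synthesis, was at 130, 118, 105 and 123 CPM on the normal diet and at 80.4, 79.1, 74.3 and 69.4 CPM on high salt. The diets did not overlap and each was narrow (log2 fold change -0.65, SE 0.14, edgeR adjusted p = 0.0593, and 0.0472 without library 4). With HS5 and HS6 summed as 1 library, again without library 4, Alas2 did not pass by edgeR. The erythroid markers ran at 604 to 1807 CPM on the normal diet and at 191 to 646 CPM on high salt. Library 1 was highest in them as in Alas2. HS7, at 646 CPM, lay within their normal diet range, while its Alas2 level of 74.3 CPM lay below all normal diet libraries. The part of the erythroid markers in the Alas2 difference was not tested.

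**Figure D5:**
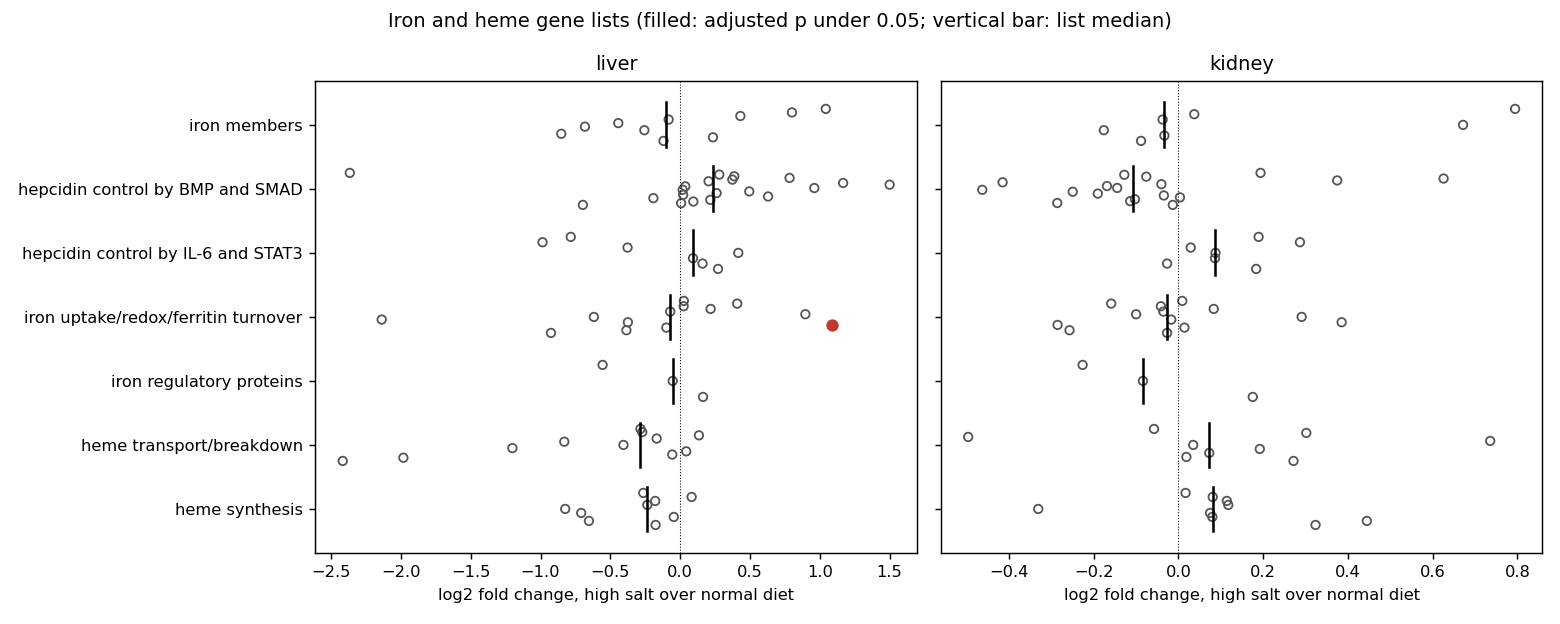
Log2 fold change of high salt over normal diet for every tested gene of the iron and heme lists in liver (left) and kidney (right), with the list median as a vertical bar and a filled point for an edgeR adjusted p under 0.05. The 1 filled point is Steap2 in liver at 1.09; the BMP and SMAD list has its liver median at 0.24 and the heme synthesis list at -0.23.

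In kidney 0 genes of any of these lists passed by edgeR or DESeq2, where 0% and 0.0694% of all kidney genes did. Outside the 10 iron genes, the lists had 18, 7, 13, 3, 9 and 9 genes tested there, in the order above. Of these only 1, Blvrb, had an unadjusted p under 0.05, where 2.01% of all kidney genes did. Blvrb, a second biliverdin reductase, was at 5.75, 11.3 and 11.9 CPM on the normal diet. On high salt it was at 13.5, 17.7 and 17.05 CPM (log2 fold change 0.74, edgeR adjusted p = 0.9996). The kidney list medians ran from -0.11 for the BMP and SMAD list to 0.087 for the IL-6 and STAT3 list, where the median of all kidney genes was -0.025. Smad5, an effector SMAD, was at 29.6 ± 0.0559 and 24.9 ± 2.70 CPM in kidney (SD, n = 3 each; adjusted p = 0.9996). Alas2 was at 3.29 ± 1.10 and 4.47 ± 0.605 CPM there (SD, n = 3 each; adjusted p = 0.9996). The other genes with the smallest p of their list in kidney, Id2, Socs3, Il6ra, Cp, Aco1, Fbxl5, Flvcr1 and Alas1, had log2 fold changes from -0.50 (Flvcr1) to 0.32 (Alas1), each with an edgeR adjusted p of 0.9996.

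The genes most like 4 of the iron genes were searched over the 8 liver libraries by Pearson's r of log2 CPM, among 6697 or 6698 genes with a mean of at least 10 CPM. For Hamp they were Prxl2a (r = 0.98), Gpkow (0.98) and Nxt2 (0.98), whose mean levels differed little between the diets, as did that of Hamp. For Tfrc they were Cyb5r4 (0.97), Tstd3 (0.96) and 4930453N24Rik (0.96). For Id1 they were Mid1ip1 (0.96), Fabp5 (0.96) and Rassf3 (0.95), and Mid1ip1 stood at a mean of 19.3 CPM on the normal diet and, with high salt, of 58.0 CPM. For Slc40a1 they were Usp33 (0.98), Mpp5 (0.95) and Elf1 (0.95). Without library 4 these 12 values of r ran from 0.90 to 0.98. With 8 libraries and that many genes searched, values of this height are described and not tested.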

How the data were processed

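RNA of 8 liver and 6 kidney libraries was measured, prepared with a SMARTer mRNA kit from total RNA, per the labels' protocols. The authors deposited expected counts per gene and also normalized values, a linear signal for each gene, per the file headers. The submitters' processing notes name STAR 2.5.3a, Partek 7.0, DESeq2 and the build mm10, with no role or order. The reads carry no molecular identifiers that the labels name, so counting floors cover counting error only.

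Columns were matched to samples by name. The liver columns of the high salt diet do not show which titled sample they hold, and 0 per-sample columns were left unused. Expected counts were rounded, and edgeR 4.0.16 (TMM, filterByExpr by group, quasi-likelihood test) was run in R 4.3.3 within each tissue and in 1 fit of all 14 libraries for the difference between tissues, with Benjamini-Hochberg adjustment over all genes and a threshold of 0.05. Liver libraries held 37267778 to 51487382 counts and kidney libraries 16046094 to 22004927, and at a common coefficient of variation of 0.314 (liver) and 0.30 (kidney) the spread between libraries limits most genes more than depth does. Transcripts and UTRs were those of GENCODE M21 (transcripts numbered 201), and promoters those of RefSeq.

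Named genes are the 10 iron genes, the list genes past the threshold or else the 2 with the smallest p in each list, and the 3 genes most like Hamp, Tfrc, Id1 and Slc40a1. A gene that this rule takes is not reported here. The iron genes and lists were chosen with earlier results of these data known.

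In simulated counts, 200 genes were given a log2 change of 2. The liver fit recovered 167 of them (14914 genes, 10 false calls) and the kidney fit 147 (15522 genes, 9 false calls). The fit of the difference between tissues recovered 132 (13504 genes, 8 false calls). In the main fits no iron gene differed by as much, the largest log2 difference being 1.04 for Id1 in liver. Recovery at such sizes was not measured. The simulated libraries of a diet also shared their mean levels, without a library like library 4. Alternatives were RLE and upper quartile scaling, other filters on low counts, DESeq2 1.42.0, limma 3.58.1 on log2 of the deposited normalized values plus 1, all libraries in 1 fit, mitochondrial genes left out, HS5 and HS6 summed, Hamp and Hamp2 summed, the replicate block in kidney, and each library left out in turn. Added once the data had been seen were the sum of Ftl1 and its copies, leaving out normal diet liver libraries 1 and 2, and summing HS5 and HS6 with library 4 left out.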

Additional observations from a re-analysis of the deposited data

How the results depend on the processing

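In liver the number of iron genes called was 0 with edgeR and 4 with DESeq2, and 0 to 1 when each library was left out in turn, the 1 being Tfrc without normal diet library 4. Every other alternative run gave 0, and in kidney and for the difference between tissues every one gave 0. Calls over all liver genes ranged more widely: 152 with edgeR, 1122 with DESeq2, 409 without library 4, 765 without library 3 and 12 with HS5 and HS6 summed.

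The sign of small differences was not fixed. Hamp in liver had a log2 fold change of 0.055 with limma on the deposited values, 0.79 without normal diet libraries 1 and 2, and -0.36 to 0.24 over the libraries left out. Ftl1 in liver was at 0.25 without libraries 1 and 2 and -0.21 to 0.088 over the libraries left out. Socs3 was at 0.67 with HS5 and HS6 summed and library 4 left out, and -2.10 to 0.37 over the libraries left out, and Fbxl5 was at 0.26 without libraries 1 and 2. In kidney, Ftl1 with its copies was at -0.065. Leaving out each kidney library gave -0.26 to 0.35 for Trf, -0.23 to 0.055 for Slc40a1, -0.085 to 0.22 for Bmp6 and -0.30 to 0.027 for Tfrc. For the difference between tissues, leaving out each library gave -0.82 to 4.61 for Hamp and -2.67 to 1.78 for Tfr2, both near 0 counts in kidney, and -0.036 to 0.61 for Id1. The causes of these reversals were not tested.

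Same-numbered kidney libraries correlated at 0.41, 0.37 and -0.09 in their deviations from the group means. Differently numbered ones correlated at -0.47 to 0.39. With 3 libraries for each diet these values can neither show nor exclude a pairing. With the replicate block 0 iron genes were called and Trf was at 0.031. In liver no paired analysis was possible because high salt liver columns carry numbers that match no normal diet library.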
